A study of Mus musculus with 4 samples.

Results

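The genes described here encode 10 surface receptors that tune T cell activation, out of 50600 gene identifiers counted in RNA from mouse Th17 cells. They were chosen by name: the costimulators Cd28 and Icos, the inhibitory receptors Ctla4, Pdcd1, Btla, Cd160, Lag3 and Tigit, and the scavenger receptor cysteine-rich (SRCR) family members Cd5 and Cd6. All 10 were found by symbol. The study sequenced 4 libraries of 1 group, T-helper 17 primary cells of strain C57BL/6NJ, numbered as biological replicates 1 to 4. No treatment, genotype, sex, age or time point is given in the labels, while the headers of the count files name a time of 2 hours without saying from which event. The libraries share 1 donor identifier and have different biosamples; the labels do not say whether these were separate animals or cultures, so SDs and p-values describe the scatter of these libraries alone.

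T cells respond to antigen only when signals through the T cell receptor are joined by signals through costimulatory receptors. CD28 binds CD80 and CD86 on antigen-presenting cells, and ICOS, its relative, binds ICOS ligand and supports helper cells after their first activation. CTLA-4 competes with CD28 for the same ligands, PD-1 (Pdcd1) and BTLA recruit phosphatases, LAG-3 binds MHC class II, TIGIT competes with CD226 for CD155 (Pvr), and CD5 and CD6 sit close to the T cell receptor and adjust its signal. Several of these genes, Ctla4, Icos, Pdcd1, Lag3 and Tigit among them, are known to be induced when T cells are activated.

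Several of these receptors carry tyrosine motifs in their cytoplasmic tails to which signalling enzymes bind. The coding stretches that match such motifs were read from GENCODE M21 transcripts (mm10) and are shown because they group the receptors by the kind of enzyme their tails are known to bind. Cd28, Icos and Ctla4 each had 1 match, downstream of the most hydrophobic 19-residue window, to tyrosine, any 2 residues, methionine, the form bound by phosphoinositide 3-kinase. Capitals mark the codons of the match, and the sequences are 5′ to 3′ on the plus strand of chromosome 1, in the last exon of each transcript (exon 4 of 4), at chr1:60769675-60769722 for Cd28, chr1:60995542-60995589 for Icos and chr1:60914628-60914675 for Ctla4.
Cd28: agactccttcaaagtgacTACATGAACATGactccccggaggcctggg
Icos: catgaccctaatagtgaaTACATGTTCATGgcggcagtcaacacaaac
Ctla4: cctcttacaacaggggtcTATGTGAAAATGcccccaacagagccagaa

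A second motif, the immunoreceptor tyrosine-based inhibitory motif (ITIM), was searched as serine, isoleucine, leucine or valine, then any residue, tyrosine, any 2 residues, and isoleucine, leucine or valine. The switch form (ITSM) was searched as threonine, any residue, tyrosine, any 2 residues, and valine or isoleucine. Pdcd1 and Btla each had 1 match to both, and Tigit and Cd5 had 1 match to the ITIM. The stretches lie at chr1:94039470-94039523 and chr1:94039401-94039454 (minus strand, exon 5 of 5) for Pdcd1 and at chr16:45250472-45250525 and chr16:45250547-45250594 (plus strand, exon 6 of 6) for Btla. That of Tigit lies at chr16:43649016-43649069 (minus strand, exon 4 of 4), and that of Cd5 crosses from exon 9 to exon 10 of 11 within chr19:10719604-10720248 (minus strand).
Pdcd1 ITIM: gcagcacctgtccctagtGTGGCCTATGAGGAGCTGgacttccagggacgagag
Pdcd1 ITSM: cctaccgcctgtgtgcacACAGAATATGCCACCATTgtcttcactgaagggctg
Btla ITIM: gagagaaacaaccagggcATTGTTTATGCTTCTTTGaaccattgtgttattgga
Btla ITSM: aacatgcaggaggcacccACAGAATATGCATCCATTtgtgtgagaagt
Tigit ITIM: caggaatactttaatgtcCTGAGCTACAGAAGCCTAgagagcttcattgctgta
Cd5 ITIM: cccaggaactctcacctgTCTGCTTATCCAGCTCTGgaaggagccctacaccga

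Over the last 100 codons of 21526 protein coding genes, the first pattern was present in 6.19%, the ITIM pattern in 16.6% and the ITSM pattern in 1.69%. Of the 10 receptors, 3, 4 and 2 held them in the same window. A match is a description of letters and not of a working site. Lag3 and Cd6 had no match after the window, which says only that these patterns are not there. Cd160 has only 3 codons after its window, too few to hold any of the patterns, so its lack of a match was fixed in advance. The tail of Cd6 is the longest of the 10, with 243 codons after the window and 10 tyrosine codons.

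Total counts were 25847970 to 40652146 per library, and each level below is in TPM, which divides a gene's fragment count by its exon length and scales each library to the same sum. T cell markers stood high in every library: 8 of 8 reached a mean of 1 TPM, with a summed level of 7073 to 7537 TPM. Of 8 Th17 markers 5 reached 1 TPM, summed to 32.2 to 48.4 TPM, with Il23r and Ccr6 among those below it. Il17f stood at 10.2, 7.04, 11.7 and 20.8 TPM. It was the 1 of 5 tested that varied beyond the trend described below (edgeR adjusted p = 0.0171), against 0.813% of all tested genes. Markers of other cells were also counted, and the B cell and Treg sums exceeded the Th17 sum in every library: 3 of 8 B cell markers reached 1 TPM (sum 126 to 156 TPM, most of it Ighm, with Ms4a1 at 0 counts), 3 of 7 NK and innate markers (sum 12.7 to 17.8 TPM, with Ncr1 and Klrb1c at 0), 3 of 9 myeloid and dendritic markers (sum 18.99 to 28.3 TPM), 2 of 5 CD8 markers (sum 25.1 to 34.8 TPM, most of it Cd8b1), 3 of 5 Treg markers (sum 178 to 233 TPM) and 1 of 4 gamma delta T cell markers (sum 3.17 to 4.57 TPM). Most of the Treg sum came from Tnfrsf18 (mean 116 TPM) and Il2ra (84.2 TPM), and Il2ra is also in the activation list below. Foxp3, Ikzf2 and Lrrc32 averaged 1.77, 0.983 and 0.501 TPM. In bulk RNA, fewer cells with a transcript and less transcript per cell cannot be told apart. Xist, expressed in female cells, stood at 0.791, 0.602, 142 and 76.5 TPM in replicates 1 to 4. Ddx3y, on the Y chromosome, stood at 305, 213, 0.914 and 1.39 TPM. Replicates 1 and 2 thus carried male RNA and replicates 3 and 4 mainly female RNA, so the 4 libraries did not all come from 1 animal, although the labels give them 1 donor identifier.

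Averaged over libraries, 9 of the 10 receptor genes reached 1 TPM, and the median receptor stood at 156 TPM. Over all 21764 protein coding genes 45.2% reached 1 TPM and the median was 0.279 TPM. The receptors spanned from 463 TPM for Cd5 to 0.475 TPM for Cd160, and fell into an abundant set of 7 (Cd5, Btla, Icos, Cd6, Cd28, Pdcd1 and Ctla4), a low pair (Tigit and Lag3) and Cd160.

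**Figure D1:**
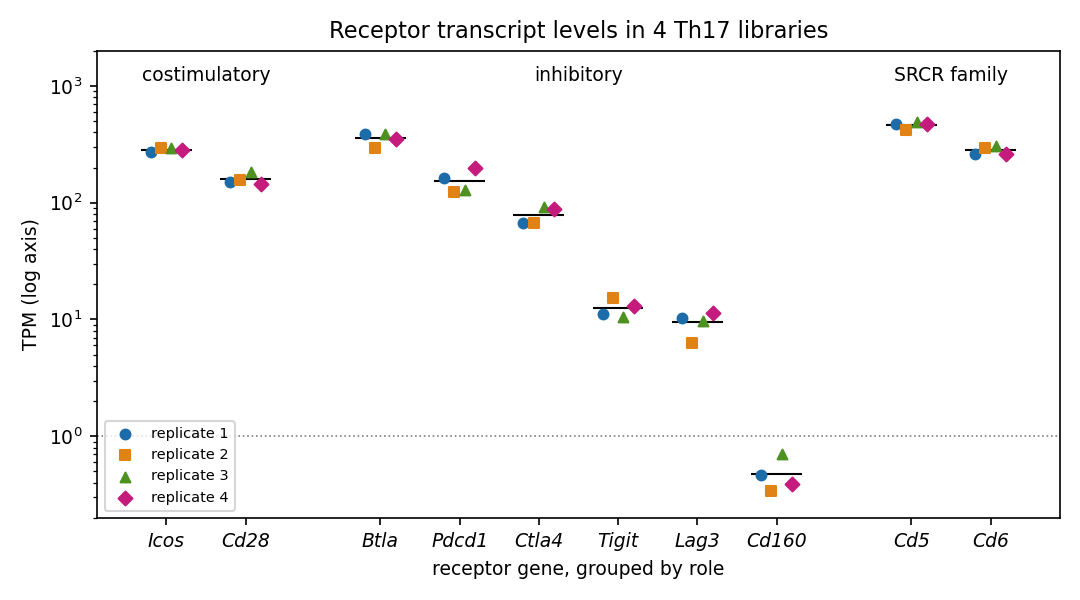
TPM on a log axis for each receptor gene, grouped by role. Each symbol is 1 of 4 libraries, the black line is the mean and the dotted line marks 1 TPM; 7 receptors lie above 60 TPM in every library, Tigit and Lag3 lie between 6.28 and 15.2 TPM, and Cd160 lies below 1 TPM in every library.

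The costimulators were both abundant. Icos stood at 273, 293, 292 and 281 TPM in replicates 1, 2, 3 and 4, a mean of 285 ± 9.15 TPM (SD, n = 4). Its highest library exceeded its lowest by 1.07 times, the narrowest relative TPM range among the 10, and it ranked 503 of 21764 protein coding genes. In log2 CPM, given below, Cd28 had a slightly narrower range than Icos (0.157 against 0.172). Cd28 stood at 149.8, 155, 182 and 146 TPM, a mean of 158 ± 16.4 TPM, with replicate 3 above the other libraries. Cd28 lay below Icos in 4 of 4 libraries, by -0.85 ± 0.12 on the log2(TPM + 1) scale, and the libraries of the genes did not overlap. The difference shrank to -0.44 when the longest annotated transcript of each gene was used as its length, since the exon length of Cd28 in the deposited tables (6122 bases) exceeds its longest transcript (4347 bases).

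Ctla4, the inhibitory relative that shares its ligands with Cd28, was less abundant than either costimulator. It stood at 66.7, 67.2, 92.0 and 88.9 TPM in replicates 1 to 4, a mean of 78.7 ± 13.6 TPM. Replicates 1 and 2 were low and near each other, and replicates 3 and 4 were high, without overlap. This split is the one between the male and the mainly female libraries; the part of sex in it was not tested, and Ctla4 did not vary beyond the trend of like genes (edgeR unadjusted p = 0.192). Cd28 exceeded Ctla4 in 4 of 4 libraries by 1.01 ± 0.22 log2 units, a TPM ratio of 2.25, 2.31, 1.98 and 1.64 in replicates 1 to 4. Cd28, Ctla4 and Icos lie in this order on the plus strand of chromosome 1 (from 60716800 to 60773359, 60887000 to 60915832 and 60977927 to 61000320 in mm10), with 114 kb and 62.1 kb between them. Between Cd28 and Ctla4 lie 6 other annotated genes, 3 of them at 1 TPM or more, and between Ctla4 and Icos lies 1, below 1 TPM. Of Cd28, Ctla4 and Icos alone, the middle gene was the lowest in every library.

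Pdcd1, which encodes PD-1, lies elsewhere on chromosome 1 (94038305 to 94052553, minus strand). It stood at 164, 123, 127 and 198 TPM, a mean of 153 ± 35.0 TPM, with replicates 1 and 4 above replicates 2 and 3. By counted exon length, its mean was close to that of Cd28, and the order of these genes differed between libraries. Pdcd1 was higher in replicates 1 and 4 and lower in replicates 2 and 3, with a mean difference, Cd28 minus Pdcd1, of 0.07 ± 0.43 log2 units. This closeness depends on the length used. With the longest annotated transcript as length, Cd28 averaged 181 TPM and Pdcd1 124 TPM. Pdcd1 exceeded Ctla4 in 4 of 4 libraries by 0.94 ± 0.36 log2 units.

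Btla was the most abundant of the inhibitory receptors. It stood at 385, 295, 391 and 349 TPM, a mean of 355 ± 43.9 TPM, and replicate 2 was the lowest. Cd160, which binds the same ligand, HVEM, rested on 13, 11, 14 and 8 counts (0.468, 0.340, 0.6996 and 0.392 TPM, mean 0.475 ± 0.159 TPM). The counts are above the limit of 3 that a count of 0 allows in each library, but too few to order the libraries. Btla exceeded Cd160 in 4 of 4 libraries, by TPM ratios of 822, 868, 559 and 889.8. On the log2 scale the difference was 7.91 ± 0.11 with a pseudocount of 1 and 9.30 ± 0.25 with 0.1, so its size depends on the pseudocount. Btla lies on chromosome 16 (45224315 to 45252895) and Cd160 on chromosome 3 (96798763 to 96829351), and 2.57% of the exon bases of Cd160 overlap exons of another gene on the other strand, which the stranded counting separates.

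Lag3 and Tigit were low but counted in every library. Lag3 stood at 10.3, 6.28, 9.77 and 11.4 TPM (732 counts in all), a mean of 9.43 ± 2.20 TPM, with replicate 2 below the others. Tigit stood at 11.1, 15.2, 10.6 and 13.03 TPM (465 counts in all), a mean of 12.5 ± 2.11 TPM, with replicate 2 above the others. Tigit exceeded Lag3 in 4 of 4 libraries, by 0.38 ± 0.52 log2 units, but their ranges overlapped, so the order of the means does not exceed the spread between libraries. Of the 31-base words in the annotated transcripts of Tigit, 8.37% also occur in another gene, and fragments from there may align to several places and go uncounted; for the other 9 receptors the share was at most 1.65%.

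Both low receptors have a partner gene on the other side of the balance. Lag3 lies next to Cd4, another receptor for MHC class II, on chromosome 6 (124904361 to 124911705), 16.1 kb away with no annotated gene between them. Cd4 stood at 347, 383, 402 and 324 TPM, and Lag3 lay below it in 4 of 4 libraries by -5.15 ± 0.43 log2 units. Tigit (chromosome 16, 43648861 to 43664184) lay below Cd226, the activating receptor for the same ligands, which stood at 23.5, 32.0, 28.9 and 24.3 TPM. This difference was -1.07 ± 0.22 log2 units in 4 of 4 libraries. It shrank to -0.12 ± 0.21 when the longest annotated transcript was used as length, so it depends on the length used. The length of Tigit hardly changed (963 exon bases, 919 in the longest transcript), so the shift lies mostly in that of Cd226. The transcript lengths come from GENCODE M21, whereas fragments were counted on M13 exons.

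The SRCR receptors were abundant. Cd5, whose level on T cells is known to follow the strength of T cell receptor signals, stood at 473, 420.0, 486 and 472 TPM, a mean of 463 ± 29.3 TPM, and ranked 294 among protein coding genes. Cd6 stood at 260.1, 295, 308 and 260.3 TPM, a mean of 281 ± 24.6 TPM. Replicate 2 was the lowest library for Cd5 and the second highest for Cd6. The genes are neighbours on the minus strand of chromosome 19 (10718143 to 10738974 and 10789341 to 10830058), 50.4 kb apart with 1 annotated gene between them, A430093F15Rik at 30.98 ± 5.39 TPM. Cd5 exceeded Cd6 in 4 of 4 libraries by 0.72 ± 0.17 log2 units, but by 0.02 ± 0.17 when the longest protein coding transcript was used as length, an alternative chosen after seeing the data. That length of Cd5 (2989 bases) exceeds its 2069 counted exon bases, which lowers its TPM by construction.

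In the order of means, Cd5, Btla, Icos, Cd6, Cd28, Pdcd1, Ctla4, Tigit, Lag3 and Cd160, 3 pairs of neighbours overlapped between libraries: Icos with Cd6, Cd28 with Pdcd1, and Tigit with Lag3. Icos minus Cd6 was 0.02 ± 0.09 log2 units, with Icos higher in 2 of 4 libraries. Btla exceeded Icos in 4 of 4 libraries by 0.31 ± 0.21, although by only 0.01 in replicate 2, and Cd5 exceeded Btla in 4 of 4 by 0.39 ± 0.10. The place of Cd5 and Cd6 depended on the length used. The alternative lengths come from GENCODE M21, whereas fragments were counted on M13 exons. Cd5 has 2069 counted exon bases and a longest transcript of 2989, and Cd6 has 3404 and 4683. Dividing by these longer lengths lowers their TPM by construction. The longest protein coding transcript of Cd6 (3032 bases) is shorter than its counted exons. With the longest protein coding transcript as length the order became Btla (265 TPM), Cd5 (239 TPM), Cd6 (235 TPM), Icos (225 TPM) and Cd28 (166 TPM), and with the longest transcript of any type Btla (288 TPM), Cd5 (259.8 TPM), Icos (244 TPM), Cd28 (181 TPM) and Cd6 (166 TPM); the order from Pdcd1 to Cd160 did not change in either.

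The 7 pairs of genes with a shared ligand, family, class or neighbourhood were compared by flipping the signs of the 4 differences. Each pair held 1 direction in 4 of 4 libraries, and each exact permutation test (two-sided) gave p = 0.13, with a Benjamini-Hochberg adjusted p of 0.13 over 7 pairs. This is the smallest value that 4 libraries allow, so no pair could pass 0.05. Summed by role, the costimulators took 423, 448, 474 and 427 TPM in replicates 1 to 4 and the 6 inhibitory receptors 637, 508, 631 and 660.1 TPM. The ratio of the inhibitory to the costimulatory sum was 1.51, 1.13, 1.33 and 1.55, and without Btla it was 0.597, 0.474, 0.508 and 0.73. Which set was larger thus turned on Btla in every library.

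The next question was whether any receptor differed between libraries more than genes of like abundance. In edgeR's negative binomial fit to the whole table, 0.813% of 11567 tested genes varied beyond the trend at a Benjamini-Hochberg adjusted p under 0.05, and 0 of the 9 receptors that passed the expression filter did; Cd160 did not pass it. At an unadjusted p under 0.05 there was 1, Pdcd1, against 5.98% of all tested genes, and DESeq2's mark for dispersion outliers also took 0 of the 9. With 9 genes a share of 0 is near the background and is no result about the receptors.

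Pdcd1 had the lowest p of the receptors (unadjusted p = 0.0024, edgeR adjusted p = 0.159, and 0.155 to 1 over the alternatives), with a range of 0.82 log2 CPM between replicate 4 and replicate 3. Lag3 had the widest range, 0.87 log2 CPM, at an abundance where the trend of the biological coefficient of variation was 17.8%, against 11.7% for Pdcd1. The edgeR adjusted p of Lag3 was 1.0. Ctla4 spanned 0.48 log2 CPM and Tigit 0.68. Cd28, Icos, Cd5, Cd6 and Btla spanned 0.16, 0.17, 0.19, 0.23 and 0.34 log2 CPM.

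**Figure D2:**
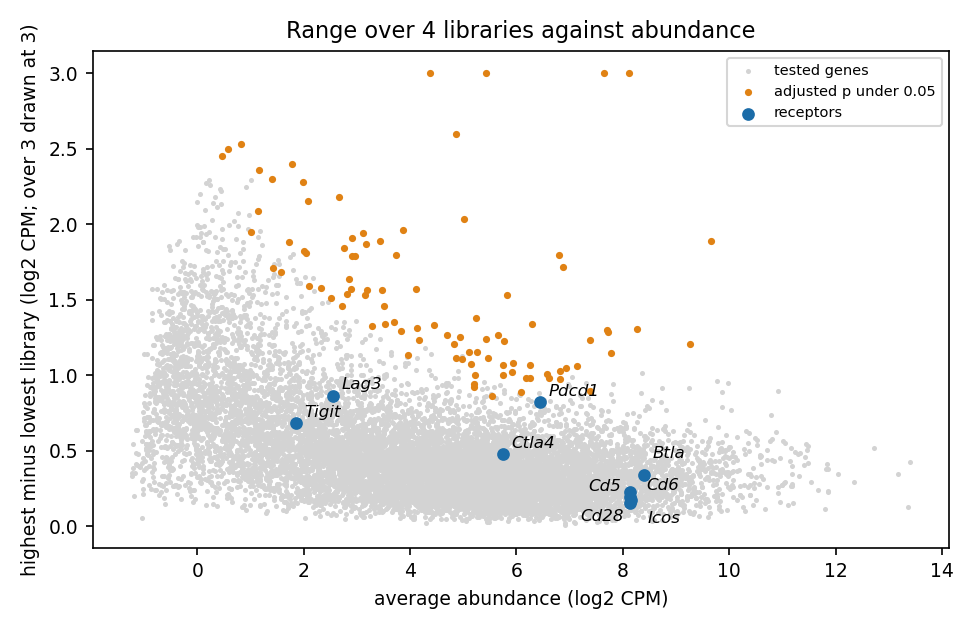
Range over the 4 libraries (highest minus lowest log2 CPM) against average abundance for the 11567 tested genes (grey), those with adjusted p under 0.05 (orange) and the 9 tested receptors (blue). Pdcd1 has a range of 0.82 and Lag3 of 0.87, and Cd28, Icos, Cd5 and Cd6 lie at 0.23 or less.

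The receptors did not share 1 order of libraries. On the TPM scale, replicate 3 was the highest library for 6 of 10 and replicate 2 the lowest for 5 of 10. These counts depend on the scaling. On the log2 CPM scale of edgeR's fit Cd28 stayed highest in replicate 3. Ctla4 and Cd5 were then highest in replicate 4, Btla in replicate 1 and Cd6 in replicate 2. The share of all genes highest in each library was not counted, so this is no result about the receptors. In TPM, Pdcd1 and Lag3 were both highest in replicate 4, followed by replicates 1, 3 and 2. The same order was shown by Il2 (21.9, 12.9, 14.2 and 43.5 TPM), Il2ra (95.8, 57.4, 65.6 and 118 TPM), Bcl6 (31.7, 15.3, 18.9 and 36.4 TPM) and Cblb (417, 203, 242 and 461 TPM), which did vary beyond the trend (edgeR adjusted p = 7.3e-05, 0.0055, 9.7e-05 and 0.0011). On the log2 CPM scale replicates 4 and 1 stayed the highest for these genes. Replicate 3 then fell below replicate 2 for Pdcd1 (6.05 against 6.17) and Il2 (2.149 against 2.174), unlike Lag3, Il2ra, Bcl6 and Cblb. How many of all tested genes show this order was not counted. Il17f, the fifth list gene that varied beyond the trend, had another order, with replicate 4 highest, then replicates 3, 1 and 2. The part of activation, depth or any other property of replicates 1 and 4 in the Pdcd1 values was not tested.

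**Figure D3:**
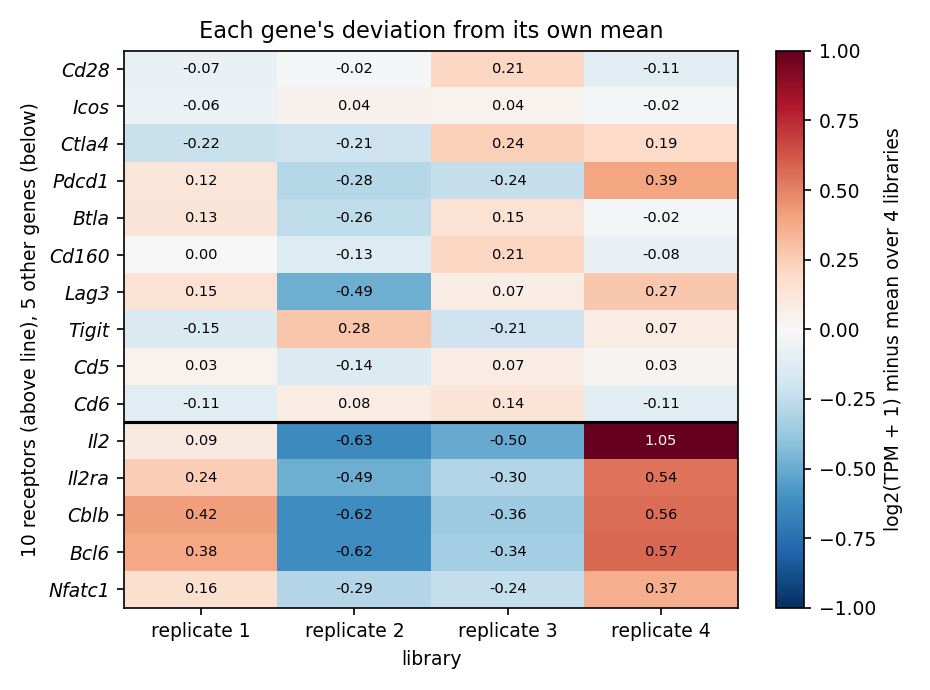
Deviation of each gene from its own mean over the 4 libraries, in log2(TPM + 1) units (colour and printed value), for the 10 receptors above the line and Il2, Il2ra, Cblb, Bcl6 and Nfatc1 below it. Pdcd1 is at 0.12 and 0.39 in replicates 1 and 4 and at -0.28 and -0.24 in replicates 2 and 3; Icos stays within 0.06 of its mean.

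Likeness of profile was measured over only 4 libraries and is a description. For Lag3, the receptor with the widest range, the nearest of 7433 tested genes of at least 10 TPM by root mean square distance of centred log2 CPM were Dus4l (0.053), Pus7 (0.067) and Gm47050 (0.070), and 13 genes lay within 0.1. For Pdcd1, chosen for this comparison after its values were seen, they were Nfatc1 (0.024), Id3 (0.032) and Zfp553 (0.033), and 49 of 7432 genes lay within 0.1. Nfatc1, a transcription factor activated by calcium signals, stood at 176, 128, 133 and 203 TPM and did not vary beyond the trend (adjusted p = 0.463).

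The ligands of these receptors were also measured, because activated T cells can carry some of them themselves. Of 15 ligand genes 8 averaged at least 1 TPM, with a median of 1.19 TPM. Cd274, which encodes the PD-1 ligand PD-L1, was the highest, at 517, 415, 457 and 475 TPM (466 ± 42.0 TPM), above Pdcd1 in every library. Pdcd1lg2, the other PD-1 ligand gene, stood at 40.3 ± 5.73 TPM. Pvr, the ligand of TIGIT and CD226, stood at 188, 165, 189 and 165 TPM (177 ± 13.8 TPM), while Nectin2 and Nectin3 had 8 and 22 counts in all.

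For HVEM, the ligand of BTLA and CD160, Tnfrsf14 stood at 66.6, 55.1, 79.9 and 57.8 TPM (64.9 ± 11.2 TPM), and its partner Tnfsf14, which encodes LIGHT, at 2.72 ± 0.974 TPM. The ligands of the CD28 family were unequal: Cd86 stood at 13.9, 12.8, 12.4 and 15.3 TPM (13.6 ± 1.32 TPM), Icosl at 2.55 ± 0.797 TPM, and Cd80 rested on 11 counts. For LAG-3, the MHC class II genes H2-Aa and H2-Ab1 stood at 1.19 ± 0.555 and 0.951 ± 0.538 TPM, Lgals3 rested on 26 counts, and Fgl1 had 0 counts throughout, a limit of 0.116 CPM in the shallowest library. Alcam, the ligand of CD6, stood at 0.321 ± 0.0839 TPM. None of the 9 tested ligands varied beyond the trend in edgeR's fit, with 0 at an unadjusted p under 0.05 and 0 by DESeq2. Cd86 and the class II genes are also expressed by antigen-presenting cells, whose marker list summed to 18.99 to 28.3 TPM with Csf1r on 2 counts. Most of that sum came from Cd74 (mean 10.7 TPM) and Cd68 (10.4 TPM), and the list itself holds H2-Aa. The part of such cells in these values was not tested.

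**Figure D4:**
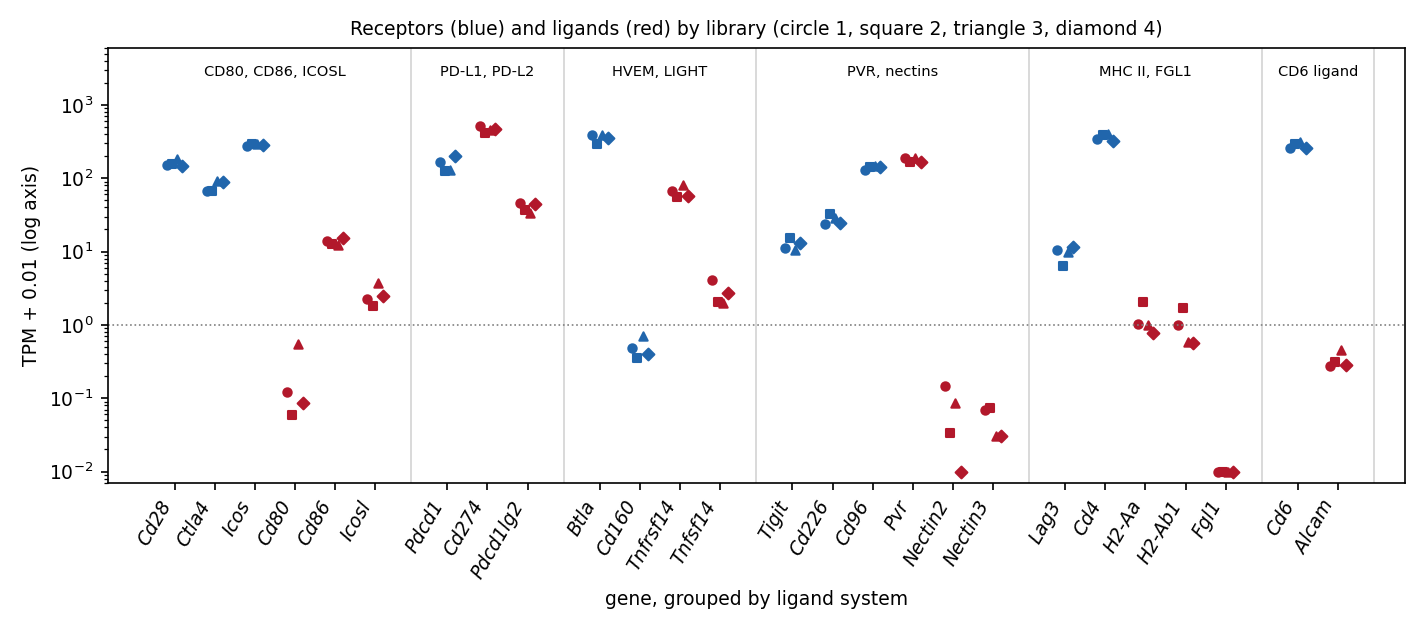
TPM plus 0.01 on a log axis for receptors (blue) and ligands (red), grouped by ligand system, with 1 symbol per library. Cd274, Pvr and Tnfrsf14 lie above 55 TPM in every library, whereas Cd80, Nectin2, Nectin3, Alcam and Fgl1 lie below 1 TPM in every library.

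Signalling genes downstream of the tails were measured throughout. All 14 genes of costimulatory signalling averaged at least 1 TPM, with a median of 192 TPM, from the adaptor Lcp2 (1189 ± 128 TPM) and the kinase Lck (1175 ± 37.8 TPM) to the phosphoinositide 3-kinase subunit Pik3r1 (29.6 ± 1.62 TPM); none of the 14 varied beyond the trend in edgeR, with 0 at an unadjusted p under 0.05 and 0 by DESeq2. All 14 genes of inhibitory signalling averaged at least 1 TPM as well, with a median of 92.5 TPM. The highest were the ubiquitin ligase Cblb (331 ± 127 TPM), which restrains activation in the absence of CD28 signals, and the phosphatase Ptpn22 (269 ± 35.7 TPM), and the lowest the adaptor Sh2d1a (12.8 ± 1.17 TPM). The phosphatases that bind ITIM and ITSM tails, Ptpn6 and Ptpn11, stood at 128 ± 12.4 and 62.0 ± 3.14 TPM, and were named after their values were seen. Cblb was 1 of 14 that varied beyond the trend, against 0.813% of all tested genes. The list was chosen with earlier results of these data known, so this share is no result about inhibitory signalling.

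Of the genes that move these receptors or their ligands to and from the surface or cut them off it, 9 of 9 averaged at least 1 TPM, with a median of 66.9 TPM. The highest were Cmtm6, which stabilises PD-L1 (492 ± 33.1 TPM), and Def6 (274 ± 15.0 TPM), and the lowest was Cmtm4 (7.32 ± 0.805 TPM). Lrba, which keeps CTLA-4 from degradation, stood at 19.3 ± 1.87 TPM and the proteases Adam10 and Adam17, which shed LAG-3, at 66.9 ± 4.21 and 40.7 ± 4.25 TPM; these 3 were named after their values were seen. None of the 9 varied beyond the trend by edgeR, at an unadjusted p under 0.05 or by DESeq2.

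Of 19 transcription and mRNA decay regulators known to act on these receptor genes or in the same activated cells, all averaged at least 1 TPM, with a median of 115 TPM. The orphan nuclear receptors Nr4a1 (14458 ± 505 TPM) and Nr4a3 (3837 ± 486 TPM) were the highest and Tox2 (6.47 ± 2.37 TPM) the lowest. Bcl6 (25.6 ± 10.1 TPM) was 1 of 19 that varied beyond the trend, against 0.813% of all tested genes. At an unadjusted p under 0.05 in edgeR there were 4 of 19 (Bcl6, Nfatc1, Nfatc2 and Tox2), against 5.98% of all tested genes. The list was chosen with earlier results of these data known, so these shares are no result about the regulators. Early activation genes were present as well: 6 of 6 averaged at least 1 TPM, with a median of 53.6 TPM, from Myc (1691 ± 68.4 TPM) and Cd69 (1243 ± 92.3 TPM) to Tnfrsf9 (7.62 ± 0.669 TPM). Il2 and Il2ra were the 2 of 6 that varied beyond the trend, against 0.813% of all tested genes. This list too was chosen with earlier results known, so the share is no result about activation genes.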

How the data were processed

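RNA-seq fragment counts per gene were used from 4 Th17 libraries of 1 group. Per the file headers, the authors made the deposited counts with featureCounts 1.4.6-p4 on exons of GENCODE mouse release M13, as reverse-stranded read pairs with both ends mapped; fragments with several alignments or several genes were not counted. The assembly is mm10 per the labels, and no version of the aligner is given in the sources used here. TPM was computed from the counts and the deposited exon lengths. Symbols came from GENCODE M21 (50376 of 50600 identifiers matched; the other 224 took at most 0.00945% of a library's counts).

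Variation was tested with edgeR 4.0.16 (R 4.3.3): intercept only, TMM, its expression filter and deviance at the trended dispersion with 3 degrees of freedom, adjusted by Benjamini-Hochberg over all tested genes. With 1 group, no quasi-likelihood test of a coefficient could be made. The step was tested on simulated data. Alternatives were DESeq2 1.42.0, other scalings, filters, gene lengths and leaving out each library. The alternative transcript lengths came from GENCODE M21, so they can hold bases outside the M13 exons on which fragments were counted. No libraries were identical (chi-square per degree of freedom 15.4 to 49.6), so each was counted as 1 replicate. This does not show that they came from separate animals or cultures.

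The members, pairs and lists were chosen with earlier results of these data known. Named were all 10 receptors, every ligand, the 2 highest and the lowest gene of each other list, genes of fixed pairs, and list genes that varied beyond the trend; other lists are given by counts. Coding sequences were translated with Biopython 1.88 to find the motifs, and only their bases are shown.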

Additional observations from a re-analysis of the deposited data

Results flagged for a closer look

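Of 80 values screened, 6 had 1 library apart from the other 3 by Dixon's 95% criterion, which chance alone meets in about 1 of 20; none was a receptor among the 10. Replicate 3 stood apart for Cd80 (0.543 TPM, on 7 counts, against 0.0481 to 0.112 TPM) and for the T cell receptor chain gene Cd3e (254 TPM against 214 to 219 TPM). Replicate 2 stood apart for Cmtm6 (541 TPM against 471 to 482 TPM) and for Tnfrsf18 (132 TPM against 109 to 113 TPM). Gzmk (0.0932 TPM in replicate 4) and Tcrg-C2 (0.0895 TPM in replicate 2) had 1 count in that library and 0 in the others.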

How the results depend on the processing

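No paired analysis was possible because there is 1 group. The call of 0 receptors was the same under every alternative run. The count of all genes that varied, 94, became 256 with a common dispersion, 60 by DESeq2's dispersion outliers and 35 to 60 without 1 replicate; the fewer libraries and the other dispersion are part of each construction, and no further cause was tested. With TPM over protein coding genes alone, leaving out those encoded in the mitochondria, the scale rose: Cd28 179.6, Icos 323, Btla 403, Cd5 525 and Cd6 319 TPM. With the longest transcript as length they were Cd28 181, Icos 244, Btla 288, Cd5 259.8 and Cd6 166 TPM, and with the longest protein coding transcript, an alternative chosen after seeing the data, Icos 225, Btla 265, Cd5 239, Cd6 235, Pdcd1 114 and Tigit 9.75 TPM. No pair reversed its mean direction in any alternative run. Depth limits Cd160, Cd80, Nectin2, Nectin3, Lgals3 and Fgl1, where 3 counts correspond to 0.0738 to 0.116 CPM.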

Other observations

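Other inhibitory and costimulatory surface receptors, outside the 10, were also measured. Of 15 such genes 10 averaged at least 1 TPM, with a median of 16.8 TPM. The adhesion and costimulatory receptor Cd2 (1572 ± 95.3 TPM) and Vsir, which encodes the inhibitory receptor VISTA (528 ± 64.3 TPM), were the highest and Pvrig, at 0 counts in every library, the lowest. Vsir stood at 581, 485, 462 and 585 TPM in replicates 1 to 4, above each of the 6 inhibitory receptors described in the report in every library. Havcr2, which encodes the exhaustion marker TIM-3 and was named after its values were seen, had 5 counts in all. None of the 11 that were tested varied beyond the trend in edgeR's fit, and DESeq2 marked 0. At an unadjusted p under 0.05 in edgeR there was 1, Slamf6, against 5.98% of all tested genes.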
